A study of Mus musculus with 6 samples.

Results

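The sodium-calcium exchangers are the 9 genes named Slc8a1, Slc8a2, Slc8a3, Slc8b1, Slc24a1, Slc24a2, Slc24a3, Slc24a4 and Slc24a5. They were taken by symbol from the deposited gene tables, where each matched a single Ensembl gene, among 46603 genes in all. Their RNA was read in 6 libraries of C57BL/6 mouse lower incisors, made from freshly isolated (primary) cells of the enamel organ. Libraries DKO 1, DKO 3 and DKO 4 came from Stim1/2 knockout mice (DKO) and libraries WT 1, WT 2 and WT 3 from wild-type mice (WT). The enamel organ is the epithelium that holds the ameloblasts, the cells that secrete the enamel matrix and later mineralise it. STIM1 and STIM2 sense how full the calcium store of the endoplasmic reticulum is, and on its emptying open ORAI channels at the cell surface. The labels give no age, sex, allele or Cre driver, and do not say that replicates came from separate animals, so a p-value here reflects the spread among these samples alone, which may be technical.

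Both families move calcium against its gradient by letting sodium in. The SLC8 proteins of the plasma membrane (NCX) exchange sodium for calcium, and SLC8B1 (NCLX) does so in the inner mitochondrial membrane. The SLC24 proteins (NCKX) carry potassium out together with calcium. SLC24A4 (NCKX4) is known from the maturation stage of enamel, and its loss in people causes a hypomineralised enamel, a form of amelogenesis imperfecta. Those at the plasma membrane rely on the sodium gradient that the sodium pump builds.

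Levels within a gene are given in counts per 1e6 (CPM, TMM-scaled), and levels between genes in the deposited FPKM (fragments per kilobase of a transcript and per library size). The libraries held from 18609759 to 22829411 counts. Stim1 averaged 125 ± 18.1 CPM in DKO and 422 ± 65.1 CPM in WT, and Stim2 122 ± 15.8 CPM in DKO and 261 ± 42.6 CPM in WT (SD, n = 3 each). The edgeR quasi-likelihood test called both lower (adjusted p = 0.00553 for Stim1 and 0.018 for Stim2), and an exact permutation test, two-sided, gave each its lowest possible p with 3 against 3 libraries, 0.1. Leaving out WT 3 or any 1 DKO library ended the Stim2 call (0.0574 to 0.0987), as did a term for Xist (0.0557) and limma on unfiltered FPKM (0.126), while its log2 fold change was -1.10, -1.13 with the Xist term and -1.32 to -0.96 over all alternatives. Xist, the X-inactivation RNA of female cells, exceeded 100 CPM only in the libraries DKO 1, WT 1 and WT 2, with 1.22 CPM or less in DKO 3, DKO 4 and WT 3, so the sexes were unequally split over the groups. Summed over marker lists, secretory-stage ameloblast genes lay at 116400 to 181100 CPM in DKO and 69870 to 139200 CPM in WT, and maturation-stage genes at 22040 to 26500 CPM in DKO and 20120 to 26980 CPM in WT. The dental epithelium list lay at 6629 to 6734 CPM in DKO and 8668 to 10190 CPM in WT, and the oral keratinocyte list at 64.4 to 111 CPM in DKO and 245 to 420 CPM in WT. Mesenchyme markers lay at 10310 to 12800 CPM in DKO and 6626 to 10930 CPM in WT, so the tissue was not epithelium alone. Odontoblast and osteoblast markers lay at 171 to 392 CPM in DKO and 116 to 228 CPM in WT, and erythroid markers at 102 to 292 CPM in DKO and 104 to 319 CPM in WT.

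The exchanger RNA of the enamel organ was almost wholly Slc24a4 RNA, and this held in DKO and in WT. Slc24a4 made up 91.9%, 92.7% and 94.3% of the summed FPKM of the 9 genes in DKO 1, DKO 3 and DKO 4, against 93.9%, 92.9% and 90.2% in WT 1, WT 2 and WT 3. The mean share was 93.0 ± 1.24% in DKO and 92.3 ± 1.96% in WT (SD, n = 3 each), and the groups overlapped. Slc24a3 followed with 5.08 ± 0.94% in DKO and 5.07 ± 1.47% in WT (SD, n = 3 each). The 4 Slc8 genes together held 1.30 ± 0.26% in DKO and 1.56 ± 0.35% in WT, and most of that was the mitochondrial Slc8b1. The plasma membrane genes Slc8a1, Slc8a2 and Slc8a3 together held 0.336 ± 0.117% in DKO and 0.345 ± 0.0654% in WT (SD, n = 3 each). Slc24a4 FPKM exceeded the sum of those 3 genes from 195-fold to 374-fold in the DKO libraries and from 233-fold to 345-fold in the WT libraries.

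**Figure D1:**
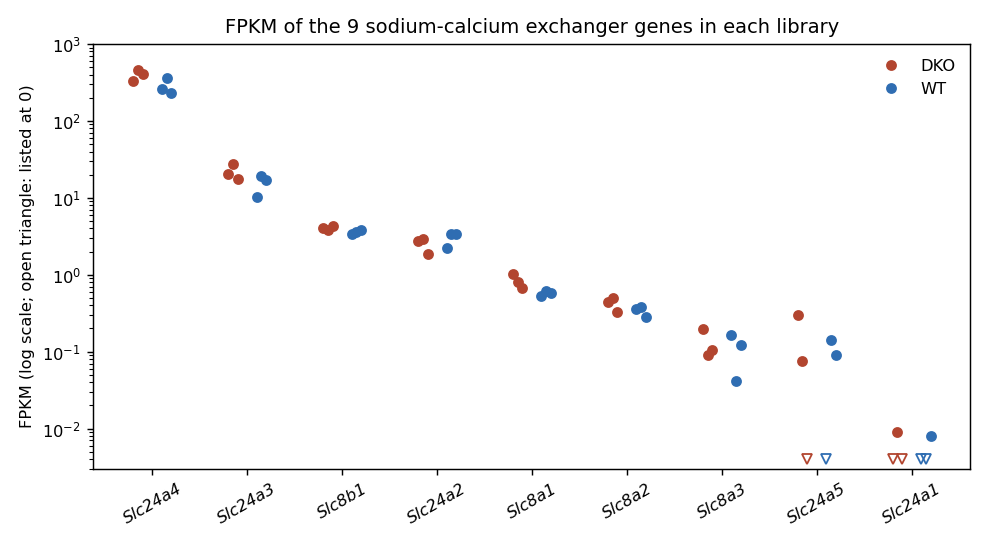
FPKM of each exchanger gene on a log scale, 1 point per library, with DKO in red left of WT in blue and open triangles at the bottom for a value listed at 0. Slc24a4 lies at 328 to 453 FPKM in DKO and 232 to 358 FPKM in WT, over 10 times above the next gene, Slc24a3, in every library.

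By mean FPKM the order of levels was the same in both groups, with Slc24a4 highest, then Slc24a3, Slc8b1, Slc24a2, Slc8a1, Slc8a2, Slc8a3, Slc24a5 and Slc24a1. Down to Slc8a3 the ranges of neighbours did not overlap within either group. Slc8a3 and Slc24a5 overlapped, as did Slc24a5 and Slc24a1. The place of Slc8a1 depended on gene length. By counts per kilobase of GENCODE exon Slc8a1 held 0.0507% of the family in DKO and 0.0477% in WT. That was below Slc8a2, with 0.133% in DKO and 0.152% in WT. In WT it was also below Slc8a3 (0.0579%) and Slc24a5 (0.0655%), while in DKO it was above them (0.0318% and 0.0306%). These Slc8a1 shares rest on 18.81 kb of GENCODE exon, while the deposited locus of Slc8a1 is shorter, so counts and length may come from different gene models. In counts alone Slc8a1 had 37, 39 and 42 in WT 1, WT 2 and WT 3, against 1, 8 and 11 for Slc24a5. Among 46397 genes with a usable FPKM, Slc24a4 ranked 232, 146 and 187 in DKO 1, DKO 3 and DKO 4, and 272, 208 and 316 in WT 1, WT 2 and WT 3. Among 375 genes whose symbol starts with Slc and a digit, the solute carriers, it ranked 3, 2 and 2 in those DKO libraries and 5, 3 and 6 in the WT libraries. Slc24a3 ranked between 53 and 68 of the 375 in DKO and between 74 and 110 in WT, and each of the other 7 genes ranked 155 or lower down in every library.

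No exchanger gene passed the comparison of DKO with WT. The edgeR test took in 7 of the 9 genes after its low-count filter and called 0, where it called 1.04% of 14721 genes. Of all tested genes 0.734% were called with a rise and 0.306% with a fall. At an unadjusted p below 0.05 it held 2 of the 7, Slc24a4 and Slc8a1, where 18.0% of all tested genes were below that mark. The DESeq2 Wald test also called 0 of the 7, where it called 817 of 15416 genes. The log2 fold change of DKO over WT was above 0 for 5 of the 7 genes, with a median of 0.27, against 7168 of 14721 and a median of -0.01 over all tested genes. A miss does not show that levels were alike: the 95% intervals were widest for Slc8a3, at 0.27-fold to 2.08-fold, and narrowest for Slc8b1, at 0.907-fold to 1.31-fold. In these bulk libraries fewer cells of a type and less RNA per cell cannot be told apart.

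**Figure D2:**
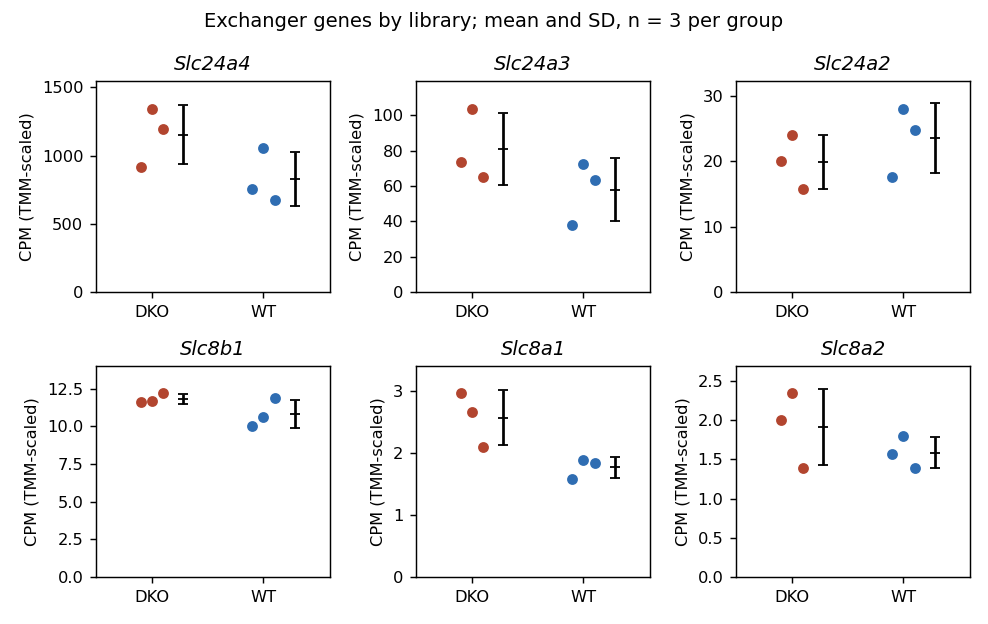
TMM-scaled CPM of 6 exchanger genes, 1 point per library, with the mean and SD of 3 libraries beside each group, DKO left of WT. The DKO and WT points overlap for each gene shown except Slc8a1, whose lowest DKO library (2.09 CPM) lies above its highest WT library (1.89 CPM).

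Slc24a4 (ENSMUSG00000041771) lies on GRCm38 chromosome 12 from 102128733 to 102267091 on the plus strand, in 16 exon blocks. It stood at 920.5, 1345 and 1194 CPM in DKO 1, DKO 3 and DKO 4, against 753, 1054 and 677 CPM in WT 1, WT 2 and WT 3. DKO 3 was the highest library and WT 3 the lowest, and the groups overlapped because WT 2 lay above DKO 1. The means were 1153 ± 215 CPM in DKO and 828 ± 199.5 CPM in WT (SD, n = 3 each), or 1.39-fold higher in DKO. The log2 fold change was 0.48 with an SE of 0.205 (95% interval 0.002 to 0.95) and did not pass (adjusted p by edgeR = 0.276). In fold terms the interval reached from 1.001 to 1.94. Among the libraries with Xist above 100 CPM, DKO 1 lay between WT 1 and WT 2, and among the others DKO 3 and DKO 4 lay above WT 3. With the Xist term the log2 fold change was 0.47 (adjusted p = 0.421). The secretory-stage and maturation-stage sums given above also overlapped between the groups. The maturation-stage sum adds up markers that lay in opposite directions, so its overlap does not show that the stages were alike. Of the 7 maturation-stage markers 5 had a log2 fold change above 0, with a median of 0.48, against 7168 of 14721 over all tested genes. Car6, a secreted carbonic anhydrase gene, and Gm1045 were called higher (568 CPM in DKO and 370 CPM in WT for Car6, 96.6 CPM in DKO and 42.3 CPM in WT for Gm1045). Over all tested genes 0.734% were called higher. Odam, the most abundant marker of that list in WT, stood at 11050 CPM in DKO and 15350 CPM in WT. Amtn, the most abundant in DKO, stood at 11180 CPM in DKO and 6497 CPM in WT. Neither was called, though for each the CPM of the groups did not overlap. The part of both lists in the Slc24a4 values was not tested. The 95% bounds that Cufflinks gives, which cover the counting and assignment of reads within 1 library, were 436 to 469 FPKM in DKO 3 and 345 to 371 FPKM in WT 2.

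Slc24a3 (ENSMUSG00000063873, chromosome 2, 145167754 to 145642166, plus strand) encodes NCKX3, an exchanger found in brain, smooth muscle and many other tissues. It stood at 73.8, 103.7 and 65.2 CPM in DKO 1, DKO 3 and DKO 4, against 37.9, 72.2 and 63.2 CPM in WT 1, WT 2 and WT 3. DKO 3 lay above the other libraries and WT 1 far below them, and the groups overlapped. The log2 fold change of 0.49 with an SE of 0.25 (95% interval -0.10 to 1.07) did not pass (adjusted p by edgeR = 0.362). It was 0.27 without DKO 3 and 0.26 without WT 1. Those 2 libraries also had the highest and the lowest sum of the secretory-stage list, with 181100 CPM for DKO 3 against 69870 CPM for WT 1, and the part of that list in the Slc24a3 values was not tested.

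The stretches before the starts of 3 NCKX genes are shown because these genes stand at the top, in second place and at the bottom of the family's levels in a single tissue. They are RefSeq sequences on GRCm38.p6, 250 bases up to the base before the start that RefSeq gives, 5′ to 3′ on the gene's strand. Capitals mark GGAAA or its reverse complement TTTCC, the core letters that NFAT factors bind.
Slc24a4, chr12:102128477-102128726, plus strand: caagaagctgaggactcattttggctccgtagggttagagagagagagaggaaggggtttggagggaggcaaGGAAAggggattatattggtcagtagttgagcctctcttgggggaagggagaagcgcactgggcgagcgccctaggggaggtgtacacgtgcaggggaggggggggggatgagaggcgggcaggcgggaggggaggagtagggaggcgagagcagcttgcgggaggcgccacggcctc
Slc24a3, chr2:145167525-145167774, plus strand: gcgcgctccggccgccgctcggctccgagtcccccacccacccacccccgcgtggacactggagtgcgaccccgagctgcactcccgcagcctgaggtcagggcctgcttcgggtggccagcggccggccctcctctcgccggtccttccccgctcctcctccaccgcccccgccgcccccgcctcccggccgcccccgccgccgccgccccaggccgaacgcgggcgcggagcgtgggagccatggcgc
Slc24a1, chr9:64951621-64951870, minus strand: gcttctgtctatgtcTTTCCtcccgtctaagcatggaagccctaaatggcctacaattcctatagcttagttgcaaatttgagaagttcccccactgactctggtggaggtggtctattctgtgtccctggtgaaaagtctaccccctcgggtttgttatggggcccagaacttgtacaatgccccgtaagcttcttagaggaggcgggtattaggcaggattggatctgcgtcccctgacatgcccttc
The RefSeq start of Slc24a3 lies inside the GENCODE gene given above, so the last bases of its stretch do too. This Slc24a3 stretch held 35 CG dinucleotides and 80.8% G or C, the Slc24a4 stretch 11 and 62.8%, and the Slc24a1 stretch 5 and 50.8%. RefSeq gives Slc24a3 a second start, and the stretch before that one (chromosome 2, 145242361 to 145242610) held 14 CG dinucleotides and 63.6% G or C. The median over 32851 such stretches in the RefSeq table was 6 CG dinucleotides. GGAAA on either strand occurred 1 time before Slc24a4, starting at position -178, and 1 time before Slc24a1, at -235, and 0 times before either Slc24a3 start, counting the last base before the start as -1. It occurs in 55.6% of the 32851 stretches, and TATAAA, on either strand, in 12.4% and in none of these 3. The table held 8 of the 9 exchanger genes, without Slc8b1.

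Slc24a2 (ENSMUSG00000037996, chromosome 4, 86983124 to 87230477, minus strand) encodes NCKX2, the exchanger of neurons and cone photoreceptors. It stood at 20.1, 23.9 and 15.7 CPM in DKO 1, DKO 3 and DKO 4, against 17.6, 28.1 and 24.8 CPM in WT 1, WT 2 and WT 3. The groups overlapped, with DKO 4 lowest and WT 2 highest, and the log2 fold change was -0.24 with an SE of 0.20 (95% interval -0.71 to 0.24, adjusted p by edgeR = 0.589). Its point estimate thus lay on the other side of 0 from those of Slc24a3 and Slc24a4. Neuron markers summed to 33.8 to 67.5 CPM in DKO and 55.4 to 64.0 CPM in WT, mostly from Tubb3, while Snap25 averaged 0.617 CPM in DKO and 0.989 CPM in WT, and Nefl had 0 counts in all 6 libraries.

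Because a ratio inside a library does not depend on scaling, the members were also set against each other. Of the 21 ratios of FPKM between pairs of the 7 tested genes, 4 did not overlap between the groups, and each of the 4 had Slc24a2 as a partner. For single genes, the CPM of 23.3% of all tested genes did not overlap. No such share was computed for ratios of pairs, which also have members in common, so the 2 shares are not directly comparable. The other partners were Slc24a4, Slc24a3, Slc8a1 and Slc8a2. For Slc8a2 the separation was seen in FPKM only, and its ratio to Slc24a2 overlapped between the groups in counts. Slc8a2 and Slc24a2 had 26 and 294 counts in DKO 4, against 37 and 415 counts in WT 1. Slc24a2 stood at 13.7%, 10.5% and 10.5% of the Slc24a3 level in DKO 1, DKO 3 and DKO 4, against 21.8%, 17.7% and 19.9% in WT 1, WT 2 and WT 3. As a share of all exchanger FPKM it was 0.593 ± 0.175% in DKO and 0.996 ± 0.278% in WT (SD, n = 3 each), with the highest DKO library at 0.770% and the lowest WT library at 0.799%. The Slc24a2 ratios were singled out after all 21 had been seen, so they are given without a test.

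**Figure D3:**
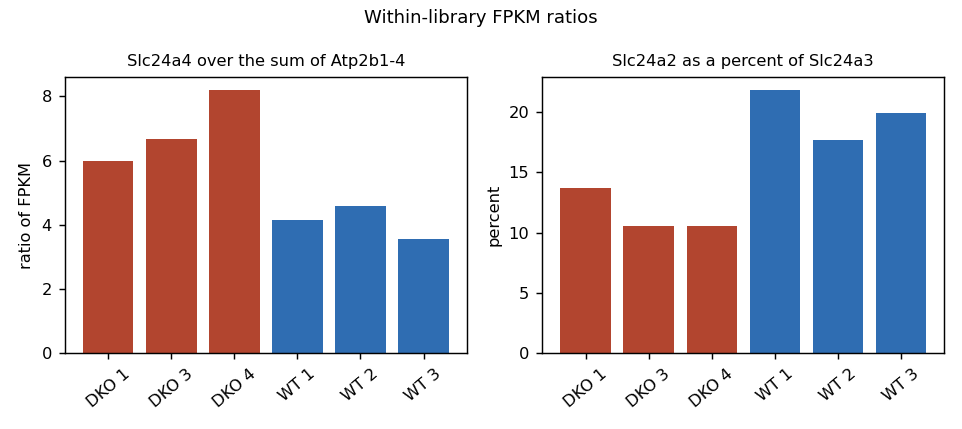
Within-library FPKM ratios as bars from 0, 1 bar per library, DKO in red left of WT in blue, with Slc24a4 over the sum of the 4 plasma membrane calcium pump genes on the left and Slc24a2 as a percent of Slc24a3 on the right. On the left DKO lies at 6.00 to 8.19 and WT at 3.57 to 4.60, and on the right DKO lies at 10.5% to 13.7% and WT at 17.7% to 21.8%.

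The remaining NCKX genes were near the limit of detection. Slc24a1 (ENSMUSG00000034452, chromosome 9, 64922861 to 64951607, minus strand), the exchanger of rod photoreceptors, had 1 count in DKO 3, 1 count in WT 3 and 0 in the other 4 libraries. A count of 0 allows up to 3 counts, or 0.127 to 0.161 CPM in these libraries, and counting error alone is covered by that limit. Photoreceptor markers summed to 1.56 to 3.00 CPM in DKO and 1.70 to 2.48 CPM in WT.

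Slc24a5 (ENSMUSG00000035183, chromosome 2, 125068124 to 125088677, plus strand) encodes NCKX5, the exchanger of pigment cells that bears on skin and hair colour. It had 4, 8 and 0 counts in DKO 1, DKO 3 and DKO 4, against 1, 8 and 11 counts in WT 1, WT 2 and WT 3. It shares 921 exon bases with Myef2 on the opposite strand in GENCODE vM21. The library kit does not mark strand, so reads of the 2 genes there cannot be told apart. Melanocyte markers summed to 35.4 to 43.2 CPM in DKO and 50.0 to 56.7 CPM in WT, mostly from Dct and Mitf. Slc45a2 and Oca2 had 0 counts in all 6 libraries, and Tyr, the tyrosinase gene, averaged 0.0527 CPM in DKO and had 0 counts in WT.

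Among the NCX genes, Slc8a1 (ENSMUSG00000054640, chromosome 17, minus strand) encodes NCX1, the main calcium exporter of heart muscle. It stood at 2.96, 2.65 and 2.09 CPM in DKO 1, DKO 3 and DKO 4, against 1.57, 1.89 and 1.83 CPM in WT 1, WT 2 and WT 3, from 37 to 59 counts per library. All DKO libraries lay above all WT libraries, and Slc8a1 was the 1 exchanger gene of 7 whose groups did not overlap, where 23.3% of all tested genes did not overlap in either direction and 11.4% lay higher in DKO. The log2 fold change of 0.54 with an SE of 0.23 (95% interval 0.002 to 1.08) did not pass (adjusted p by edgeR = 0.276). Slc8a1 shares 296 exon bases with the antisense gene AC122399.1 in GENCODE vM21, whose reads cannot be told apart from its own there. Marker sums of other cell types lay the same way, in that smooth muscle markers summed to 486 to 524 CPM in DKO and 277 to 430 CPM in WT, and leukocyte markers to 157 to 270 CPM in DKO and 105 to 149 CPM in WT. Endothelial markers summed to 247 to 273 CPM in DKO and 178 to 224 CPM in WT. Of the members tested, 5 of 6 smooth muscle, 6 of 6 leukocyte and 6 of 6 endothelial markers had a log2 fold change above 0, none was called or at 0, and their part in the Slc8a1 values was not tested.

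Slc8a2 (ENSMUSG00000030376, chromosome 7, plus strand) encodes NCX2, best known from brain. It stood at 2.01, 2.34 and 1.39 CPM in DKO 1, DKO 3 and DKO 4, against 1.57, 1.79 and 1.39 CPM in WT 1, WT 2 and WT 3. The groups overlapped, and the log2 fold change was 0.27 with an SE of 0.28 (adjusted p by edgeR = 0.654). For Slc8a1 and Slc8a2 the loci in the deposited FPKM tables are shorter than those of GENCODE vM21, so coordinates are not given for them here.

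Slc8a3 (ENSMUSG00000079055, chromosome 12, 81197915 to 81333180, minus strand) encodes NCX3, known from brain and skeletal muscle. It had 14, 3 and 8 counts in DKO 1, DKO 3 and DKO 4, against 20, 5 and 14 counts in WT 1, WT 2 and WT 3, so it barely cleared the filter. Its log2 fold change was -0.41 with a 95% interval of -1.89 to 1.06 (adjusted p by edgeR = 0.781), which leaves its direction undetermined at this depth. Skeletal muscle markers summed to 58.2 to 157 CPM in DKO and 74.7 to 300.5 CPM in WT, with 2 of 10 above a log2 fold change of 0.

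The mitochondrial exchanger gene Slc8b1 (ENSMUSG00000032754, chromosome 5, 120511168 to 120534024, plus strand) was the steadiest member. It stood at 11.6, 11.7 and 12.2 CPM in DKO 1, DKO 3 and DKO 4, against 10.1, 10.6 and 11.9 CPM in WT 1, WT 2 and WT 3. WT 3 lay inside the DKO range, and the means of 11.8 ± 0.331 CPM in DKO and 10.8 ± 0.922 CPM in WT (SD, n = 3 each) gave a log2 fold change of 0.12 with an SE of 0.11 (adjusted p by edgeR = 0.615). Mitochondrial calcium genes, which work beside Slc8b1, held 13 tested genes. Of these 0 were called, where 1.04% of all tested genes were, and their median log2 fold change was 0.03. Mcu, the pore through which calcium enters mitochondria, had a log2 fold change of -0.51 with an SE of 0.17 (adjusted p by edgeR = 0.19), at 11.0 ± 0.929 CPM in DKO and 15.7 ± 3.38 CPM in WT (SD, n = 3 each). Letm1, an ion exchanger gene of the same membrane, was at -0.04 (SE 0.08, adjusted p = 0.827).

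**Figure D4:**
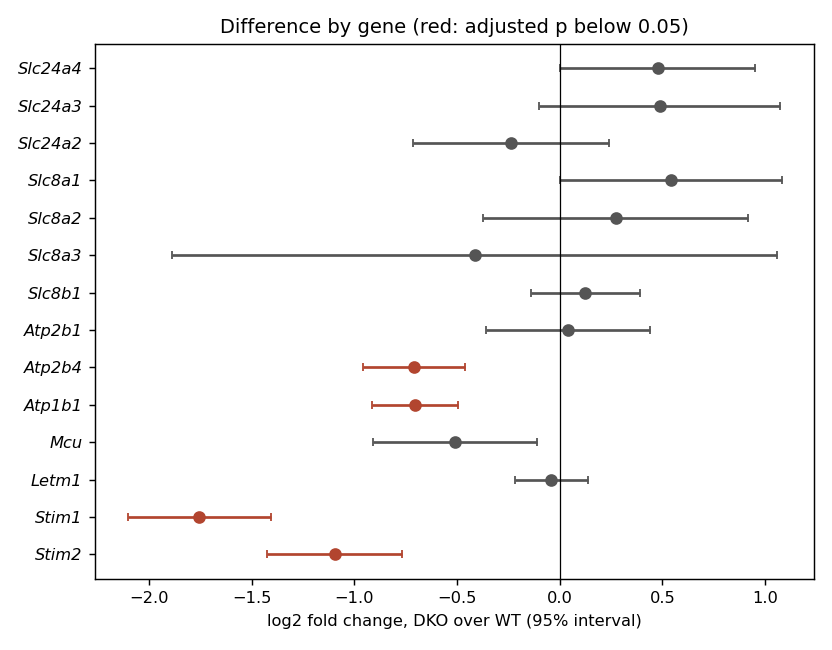
The log2 fold change of DKO over WT with its 95% interval from the edgeR fit, for the 7 tested exchanger genes and 7 genes of the pathway lists, with genes at an adjusted p below 0.05 in red. All 7 exchanger genes are grey, and Atp2b4, Atp1b1, Stim1 and Stim2 are red and lie below 0.

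The exchangers share calcium export with the plasma membrane calcium pumps, which spend ATP instead of sodium. Of the 8 tested calcium pump genes 0 rose and 1 fell (background 0.306% lower over all tested genes), with a median log2 fold change of 0.01. The gene that fell was Atp2b4, at 124, 138 and 113 CPM in DKO 1, DKO 3 and DKO 4, against 192, 228 and 194 CPM in WT 1, WT 2 and WT 3. Its log2 fold change was -0.71 with an SE of 0.11 (adjusted p by edgeR = 0.033), and the call ended without any 1 library but WT 2 (0.0574 to 0.133), with the Xist term (0.0886) and by limma on FPKM (0.0857 to 0.214). Its log2 fold change lay between -0.79 and -0.56 over all alternatives, and at -0.69 with the Xist term. Atp2b1, the widely expressed pump gene, had a log2 fold change of 0.04 with an SE of 0.17 (adjusted p = 0.923). Summed over Atp2b1 to Atp2b4, the pumps stood at 57.6 ± 9.22 FPKM in DKO and 68.8 ± 7.99 FPKM in WT (SD, n = 3 each). Slc24a4 FPKM was 6.00, 6.67 and 8.19 times that sum in DKO 1, DKO 3 and DKO 4, against 4.13, 4.60 and 3.57 times in WT 1, WT 2 and WT 3, so the groups did not overlap. This ratio was chosen with the values known and is given without a test.

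The sodium gradient that drives the exchangers at the plasma membrane is set by the sodium pump. Of 12 tested genes for its subunits and FXYD regulators 0 rose and 1 fell (0.734% and 0.306% over all tested genes), with a median log2 fold change of 0.17. Fxyd4, which encodes a regulator of the pump and was picked for its value, averaged 98.75 ± 20.5 CPM in DKO and 49.5 ± 14.6 CPM in WT (SD, n = 3 each) without overlap, but did not pass (adjusted p by edgeR = 0.0834). Atp1b1, a beta subunit that brings the pump to the membrane, stood at 198, 188 and 190.1 CPM in DKO 1, DKO 3 and DKO 4, against 340 CPM in WT 1, 284 CPM in WT 2 and 316 CPM in WT 3. Its log2 fold change was -0.71 with an SE of 0.09 (adjusted p by edgeR = 0.0179), and leaving out WT 3 or any 1 DKO library ended the call (0.0557 to 0.113), as did the Xist term (0.0579) and limma on unfiltered FPKM (0.163). Over all alternatives the log2 fold change lay between -0.77 and -0.64, and at -0.70 with the Xist term. Atp1b1 was not the most abundant beta subunit gene. Atp1b3 averaged 547 FPKM in DKO and 507 FPKM in WT, against 91.5 FPKM in DKO and 146 FPKM in WT for Atp1b1. The log2 fold change of Atp1b3 was 0.12 with an SE of 0.11 (adjusted p by edgeR = 0.624). The dental epithelium sums given above were also lower in each DKO library than in each WT library, with 0 of 5 markers above a log2 fold change of 0, and their part in the Atp1b1 and Atp2b4 values was not tested. Of 8 tested sodium-proton exchanger genes, another way for sodium to enter, 0 were called (1.04% over all tested genes), and their median was -0.02. Of 9 tested genes of store-operated entry, 0 rose and 2 fell (0.734% and 0.306% over all tested genes). The 2 that fell were Stim1 and Stim2, which the knockout itself targets.

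To place the Slc24a4 pattern over the libraries, the 5 genes with the nearest profile were listed. Likeness was measured as the root mean square difference between log2 CPM profiles over the 6 libraries, each centred on its own mean, among 12144 genes with a mean of at least 50 counts. The nearest profiles were those of Ppm1l (0.067), Opn5 (0.073), Lpgat1 (0.078), Alpl (0.082) and Arhgef17 (0.090), where the median over all candidates was 0.383. Alpl encodes alkaline phosphatase, the enzyme that frees phosphate for mineral, and stood at 2635 CPM in DKO and 1872 CPM in WT on average. Ppm1l encodes a protein phosphatase, Lpgat1 an acyltransferase of phospholipids, Opn5 a light-sensitive opsin and Arhgef17 an activator of small GTPases. None of the 5 passed the edgeR test (adjusted p from 0.22 to 0.359). The 6 points share depth and scaling within a library, and the genes are the nearest of all candidates by choice, so the likeness only describes these libraries.

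**Figure D5:**
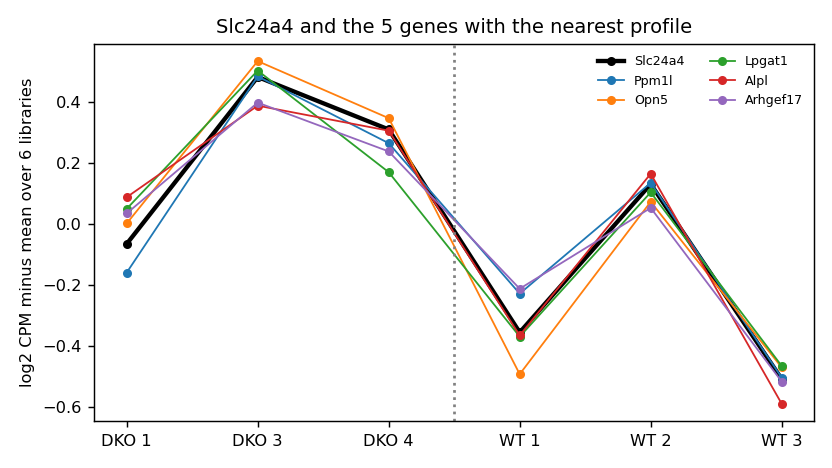
Log2 CPM minus each gene's mean over the 6 libraries, for Slc24a4 (thick black line) and the 5 genes with the nearest profile, with the DKO libraries left of the dotted line and the WT libraries right of it. Slc24a4 is highest in DKO 3 (0.48) and DKO 4 (0.31), lies at 0.13 in WT 2 and -0.06 in DKO 1, and is lowest in WT 1 (-0.35) and WT 3 (-0.51).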

How the data were processed

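Libraries were made with the TruSeq RNA v2 kit from 500 ng of total RNA and 12 PCR cycles, and read as 150 nt pairs, per the labels' protocols. The deposited counts are raw whole numbers for each Ensembl gene. The deposited FPKM come from Cufflinks, per the file headers. The submitters' processing notes name Trimmomatic 0.32, HTSeq, Cufflinks 2.2 and the build GRCm38, with no role for each. No aligner, annotation release or strand setting is given in the sources used here.

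DKO was compared with WT over all genes by the edgeR 4.0.16 quasi-likelihood test (R 4.3.3, TMM, filterByExpr, no covariate), with Benjamini-Hochberg adjustment over 14721 genes and a threshold of 0.05. A standard error is the log2 fold change over the square root of F, and its 95% interval uses the test's degrees of freedom. The fit was tested on simulated counts first. Shares and ratios are descriptions of FPKM without a test; 9 genes with a failed FPKM estimate were left out of ranks and FPKM tests. Positions and exon blocks are from GENCODE vM21 on GRCm38, 1-based, where the files' locus was the same. No pair of libraries in a group agreed within sampling noise (lowest chi-square over its degrees of freedom 14.1). Alternatives were other scalings, filters on low counts, a block for the replicate number, leaving out each library, an Xist term (above 100 CPM or not), the DESeq2 1.42.0 Wald test, and limma-trend (3.58.1) on log2 FPKM with pseudocounts of 1 and 0.1. The rule for named genes gave all 9 members, Stim1, Stim2, called genes of the pathway lists, Atp2b1, Atp2b4, Atp1b1, Mcu, Letm1 and the 5 nearest profiles; any other gene was picked once its values were known. The rule gave 1 further gene, which is not reported here. The members and lists were chosen with earlier results of these data known.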

Additional observations from a re-analysis of the deposited data

How the results depend on the processing

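Among the 7 tested exchanger genes depth was lowest for Slc8a1, Slc8a2 and Slc8a3, with fewer than 60 counts per library, and Slc8b1 had 219 to 272. Over all alternatives the log2 fold change stayed above 0 for Slc24a4 (0.35 to 0.69, adjusted p 0.112 to 0.507), Slc24a3 (0.26 to 0.84, adjusted p 0.022 to 0.671), Slc8a1 (0.22 to 0.72, adjusted p 0.266 to 0.519), Slc8a2 (0.08 to 0.55) and Slc8b1 (0.08 to 0.20). No exchanger gene was called under any alternative except 1, Slc24a3, with the replicate number as a block (log2 fold change 0.84, adjusted p = 0.022). Only the replicate numbers 1 and 3 occur in both groups. Under that block the fold changes thus compare DKO 1 and DKO 3 with WT 1 and WT 3. DKO 4 and WT 2 have no same-numbered library in the other group and add nothing to them. The deviations of same-numbered libraries correlated at 0.232 for number 1 and -0.006 for number 3 over 12146 genes. Those of differently numbered libraries correlated lower, at -0.224 for DKO 1 with WT 3 and -0.273 for DKO 3 with WT 1. The labels do not say that a number marks a pair, and these values do not settle it. That block gave 328 calls over all genes in place of 153, 1 exchanger gene in place of 0, ended the call of Atp2b4 (adjusted p = 0.0895), and turned the log2 fold change of Slc24a2 to 0.066. Calls over all genes numbered 817 by the Wald test of DESeq2, 554 with no filter on low counts, 71 with the Xist term, 77 by limma on FPKM at either pseudocount and 11 there without a filter, and from 21 (without DKO 4) to 335 (without WT 2) with a library left out. Without DKO 3 they numbered 23, without WT 3 30 and without WT 1 84. Uncalled values that crossed 0 were Slc8a3 (0.027 by limma without a filter), Atp2b1 (-0.012 with total counts, and -0.144 to 0.183 with a library left out) and Letm1 (-0.074 to 0.018 with a library left out). The Slc24a4 share was 91.5% in DKO with counts per kilobase of exon, and 90.7% in DKO and 89.45% in WT with counts alone. Without Slc8b1 the Slc8 share was 0.340% in DKO and 0.349% in WT. The cause of these shifts was not tested.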
